A study of Mus musculus with 8 samples.

Results

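The genes described here are the 45 DNA replication genes of a list that follows the order of events in S phase. They begin with Cdc6, Cdt1, Gmnn and Mcm10, grouped here under licensing, and the 6 Mcm subunits of the helicase. The polymerases, the sliding clamp and its loader and the enzymes that join Okazaki fragments follow. Last come the suppliers of deoxynucleotides and the factors that rebuild chromatin behind the fork. Members were found by gene symbol among 41174 probes. All 45 were on the arrays, with 67 probes, and all 45 were tested among 17511 features, because the brightest probe of each was well above background on all 8 arrays. Membership rests on the genes' function, but the list was chosen with earlier results of these data known.

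RNA came from femoral bone marrow of C57BL/6 mice aged 10 weeks, cultured for 5 days with IL-7, the cytokine under which B cell precursors divide. The 4 groups had 2 cultures each, a female one (replicate A) and a male one (replicate B). They were Bob1+/+ (Bob1 wild-type), Bob1-/- (Bob1 knockout), C57BL/6Ncrl wild-type (BL6 wild-type below) and miR-146a-/- (miR-146a knockout). Bob1, the product of Pou2af1, is a B cell coactivator that binds the octamer factors Oct1 and Oct2, and miR-146a is a microRNA known for restraining NF-kB signalling. The labels name no promoter-driven or cell-type-restricted deletion for either knockout. The number of mice behind each culture is not stated either. The p-values cover only the variation between the 2 cultures of a group. That variation also holds the difference in sex and, for BL6 wild-type and miR-146a knockout, a difference in array slide.

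DNA replication is prepared in G1, when the origin recognition complex, Cdc6 and Cdt1 load the Mcm ring onto DNA, and it starts when the kinase Cdc7 with its partner Dbf4 helps Cdc45 and the GINS complex join that ring. Polymerase alpha with primase lays the primers, and polymerases delta and epsilon extend them while held by the Pcna clamp. Most of these genes are transcribed before and during S phase under E2F factors, so in a mixed culture their RNA is commonly read as a sign of dividing cells.

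Levels are log2 signals relative to the 75th percentile of the same array, so 0 is that percentile. They compare a gene between arrays, not one gene with another. The 75th percentile ran from 494 to 782 intensity units and was lowest on the Bob1 knockout arrays (494 and 622). Between 60.5% and 66.1% of probes were well above background, and replicates of a group correlated at 0.988 to 0.993 across features. Pou2af1 checked the labels of the Bob1 knockout arrays, but cannot tell the other groups apart. Its level was 2.71 and 2.82 in the Bob1 knockout against 6.40 to 6.72 on the other 6 arrays (log2 difference -3.71, adjusted p = 0.000245, limma).

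The arrays lay on 2 slides, and this bears on every Bob1 comparison. Slide 1 held both Bob1 wild-type arrays and slide 2 both Bob1 knockout arrays, while the BL6 wild-type and miR-146a knockout groups had 1 array on each. The direct Bob1 comparison therefore runs between slides, and values within a slide are given beside it. The cultures were also mixed. All 11 B lineage markers and all 11 myeloid markers on the arrays were well above background on all 8 arrays. In such RNA, fewer cells of a type and less RNA per cell cannot be told apart.

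In the Bob1 knockout, all 45 replication genes lay above Bob1 wild-type, where 62.4% of all features did. The log2 differences ran from 0.20 for Fen1 to 1.01 for Chaf1b, with a median of 0.53 (1.44-fold) against 0.12 for all features and 0.11 for all 26525 probes that passed the filter. The test was limma with Benjamini-Hochberg adjustment over all features at 0.05. It called 7 members, and all 7 rose: Chaf1b, Pole2, Pold1, Lig1, Pold3, Rpa2 and Tk1. Of all features, 3.49% were called higher in this comparison. At an unadjusted p under 0.05, 37 members were higher, against a background of 18.1%. The smallest differences belonged to Fen1 (0.20), Gins4 (0.21), Prim2 (0.24) and Cdc45 (0.26), and none of these passed. Standard errors of the members ran from 0.11 to 0.23.

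With slide as a block in the same fit, all 45 members remained higher, where 58.5% of all features were higher. The members' differences were 0.20 to 0.91, with a median of 0.46 against 0.08 for all features. No member was called then (smallest adjusted p = 0.239, with 0.72% of all features called in either direction), and 14 were higher at an unadjusted p under 0.05, against 5.76% of all features. All 7 calls also ended when any 1 of the 4 Bob1 arrays was left out, while the direction of all 45 members did not change. Most of the calls also ended when a BL6 wild-type or a miR-146a knockout array was left out. The share of all features called fell as well, whichever array was left out.

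**Figure D1:**
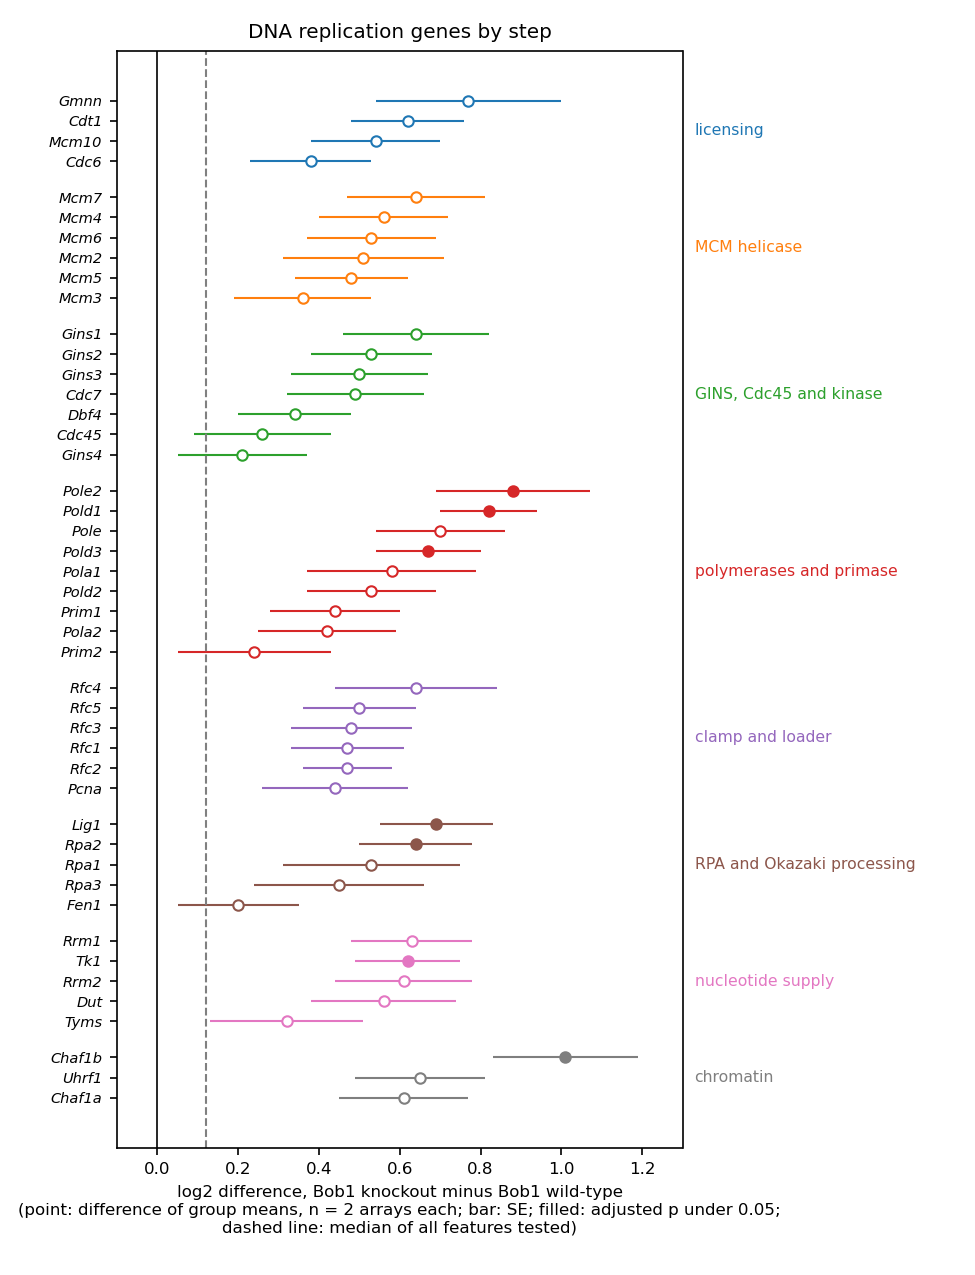
Log2 difference between Bob1 knockout and Bob1 wild-type (x axis) for each of the 45 genes, grouped by step of replication, with standard error bars (2 arrays a group). Filled points passed the test. All 45 points lie right of 0 and right of the dashed line at 0.12, the median of all features, from Fen1 at 0.20 to Chaf1b at 1.01.

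The array values show how far the groups stood apart. Both Bob1 knockout arrays were above both Bob1 wild-type arrays for 42 of 45 members, all but Gins4, Prim2 and Fen1, a pattern that 41% of all features had. For 41 members, all but these and Rpa1, both knockout arrays were above all 6 other arrays, against 27.1% of all features. On each knockout array all 45 members exceeded their own mean over the 8 arrays, which includes the knockout arrays. Their median deviation was 0.37 in the female and 0.47 in the male culture, against 0.10 and 0.06 for all features. The members' median deviations on the other 6 arrays ran from -0.27 (Bob1 wild-type, female) to 0.02 (Bob1 wild-type, male).

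**Figure D2:**
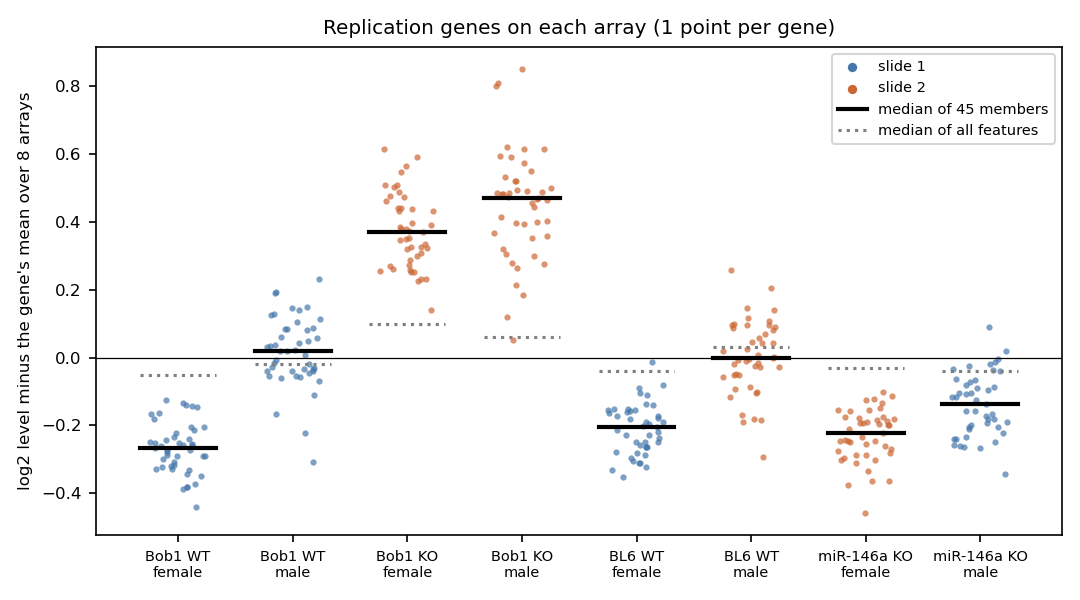
Level of each replication gene minus its own mean over the 8 arrays (y axis, log2), by array. Each point is 1 gene, solid bars are medians of the 45 members and dotted bars medians of all features. The Bob1 knockout arrays have medians of 0.37 and 0.47, and the other 6 lie between -0.27 and 0.02 on both slides.

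Within slide 2, the mean of the Bob1 knockout arrays could be set against the 2 Bob1-sufficient arrays there, 1 BL6 wild-type male and 1 miR-146a knockout female. All 45 members were higher, where 60% of all features were. The members differed by 0.28 (Prim2) to 0.99 (Pole2), with a median of 0.52 against 0.08 for all features. No member was called (smallest adjusted p = 0.103, Pole2), where 1.26% of all features were, and 32 members had an unadjusted p under 0.05, where 10.2% of all features were higher at that level. On slide 1, which held no knockout array, Bob1 wild-type differed from the 2 other arrays by -0.12 to 0.22 over the members, with a median of 0.04 against 0.00 for all features.

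Within slide 2 the differences of the 7 called genes were 0.99 for Pole2, 0.77 for Chaf1b, 0.74 for Tk1, 0.70 for Pold3, 0.63 for Lig1, 0.57 for Pold1 and 0.50 for Rpa2. With slide as a block their adjusted p-values ran from 0.239 (Pold1) to 0.443 (Tk1). Prim2 (0.28), Fen1 (0.30) and Gins4 (0.36) had the smallest differences within slide 2, and they were also the 3 smallest between slides. These values share the knockout arrays with the comparison between slides.

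When the Bob1 knockout was compared with the mean of the 3 other groups, a contrast chosen after the values were seen, 28 of 45 members were called higher, where 8.82% of all features were. With slide as a block in that contrast, the smallest adjusted p was 0.0872 and the median 0.51.

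**Figure D3:**
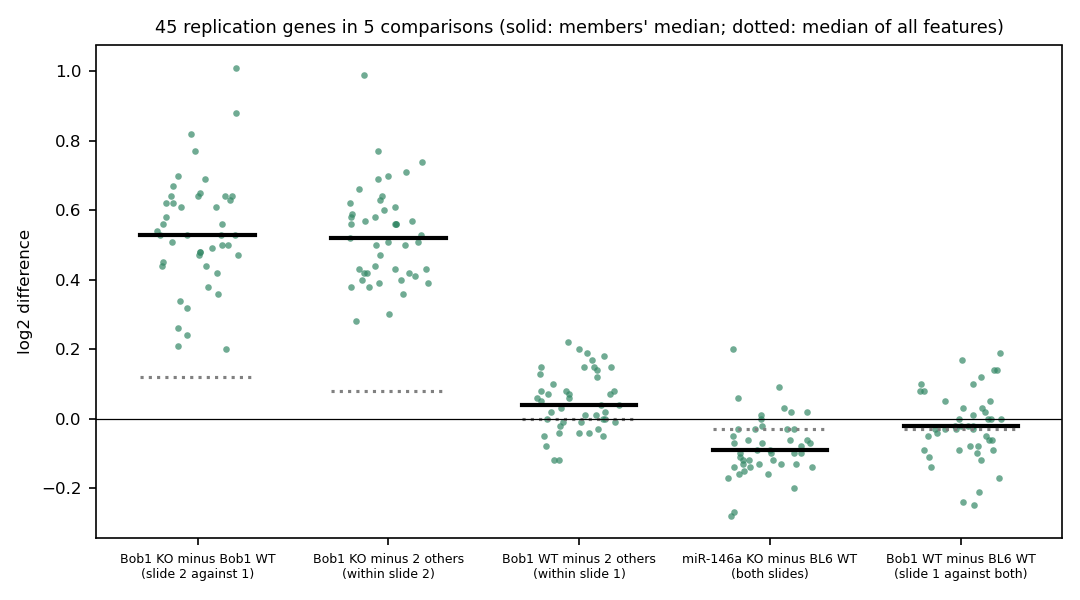
Log2 differences of the 45 genes (y axis) in 5 comparisons, 1 point per gene, with the members' median solid and that of all features dotted. The comparison between slides and the one within slide 2, both with the Bob1 knockout, have medians of 0.53 and 0.52. The 3 without it have medians of 0.04, -0.09 and -0.02.

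Chromatin assembly held the member with the largest difference. Chaf1b encodes a subunit of chromatin assembly factor 1, which places histones on new DNA where Pcna has passed. Its level was 3.39 and 3.61 in Bob1 wild-type, 4.34 and 4.68 in Bob1 knockout, 3.57 and 3.91 in BL6 wild-type, and 3.56 and 3.58 in miR-146a knockout. Both knockout arrays were above the other 6. The log2 difference was 1.01 (SE 0.18, 2.02-fold, adjusted p = 0.0293), and a second probe of the gene gave 1.17. Chaf1a, the large subunit of the same factor, read 2.22 and 2.57 in wild-type and 2.99 and 3.02 in knockout. Its difference of 0.61 was not called. Uhrf1, which recruits the maintenance methyltransferase to new DNA, differed by 0.65 (adjusted p = 0.0615).

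Of the 9 polymerase and primase genes, 3 were called. Pole2 encodes the second subunit of polymerase epsilon, the leading strand enzyme. It stood at 0.80 and 1.23 in Bob1 wild-type, 1.80 and 1.98 in knockout, 0.90 and 1.08 in BL6 wild-type, and 0.73 and 0.96 in miR-146a knockout. The knockout arrays lay above all others (difference 0.88, SE 0.19, adjusted p = 0.0450). Pole, the catalytic subunit, differed by 0.70 and was not called (adjusted p = 0.0506). With the mean of its 2 probes its adjusted p was 0.323, and with a slide block 0.449. Some alternatives did call it, such as the deposited value table (adjusted p = 0.0241).

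Pold1, the catalytic subunit of polymerase delta, had the smallest adjusted p of the list. Its level was 4.77 and 4.76 in Bob1 wild-type and 5.61 and 5.57 in Bob1 knockout. In BL6 wild-type it was 4.91 and 5.12, and in miR-146a knockout 4.92 and 4.86. The duplicates of both Bob1 groups were nearly equal, and the difference was 0.82 (SE 0.12, 1.77-fold, adjusted p = 0.0158), with 0.72 from a second probe. Within slide 2, which holds the BL6 wild-type array at 5.12, the difference was 0.57.

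Pold3, an accessory subunit of polymerase delta, was measured at 2.84 and 3.04 in Bob1 wild-type, 3.54 and 3.68 in knockout, 3.02 and 2.92 in BL6 wild-type, and 2.90 and 2.93 in miR-146a knockout. The knockout arrays were again the highest (difference 0.67, SE 0.13, adjusted p = 0.0337), and its 3 probes gave 0.57 to 0.68. At the low end of this step, the primase subunit Prim2 read 1.98 and 2.42 in wild-type and 2.37 and 2.50 in knockout. Those groups overlapped, and the difference of 0.24 did not pass (adjusted p = 0.422). The remaining members, Pola1, Pola2, Prim1 and Pold2, differed by 0.42 to 0.58 with no call.

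Among the genes for single-stranded DNA binding and Okazaki fragment joining, 2 of 5 were called. Lig1 encodes DNA ligase 1, which seals the nicks between fragments. It read 4.92 and 5.15 in Bob1 wild-type, 5.78 and 5.67 in knockout, 4.98 and 5.16 in BL6 wild-type, and 5.01 and 5.02 in miR-146a knockout. The 6 arrays with Bob1 lay within a narrow band below both knockout arrays (difference 0.69, SE 0.14, adjusted p = 0.0379). Rpa2, a subunit of the RPA complex that coats single-stranded DNA, read 1.59 and 1.72 in wild-type, 2.22 and 2.38 in knockout, 1.69 and 1.90 in BL6 wild-type, and 1.70 and 1.86 in miR-146a knockout (difference 0.64, SE 0.14, adjusted p = 0.0471). A second probe of Rpa2 gave 0.47, and with the mean of a gene's probes Rpa2 was not called.

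Fen1, the flap nuclease that trims fragments before ligation, had the smallest difference of all 45. It read 2.56 and 2.82 in wild-type and 2.96 and 2.82 in knockout, so the groups touched, and its difference was 0.20 (95% interval -0.15 to 0.55). The interval takes in both 0 and the median of the members, so the data do not separate Fen1 from either. Rpa1 and Rpa3, the other RPA subunits, differed by 0.53 and 0.45 and were not called.

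In nucleotide supply, 1 of 5 genes was called. Tk1, the thymidine kinase of dividing cells, read 3.09 and 3.25 in Bob1 wild-type, 3.75 and 3.83 in knockout, 2.92 and 3.15 in BL6 wild-type, and 2.95 and 2.97 in miR-146a knockout. Both knockout arrays exceeded the rest (difference 0.62, SE 0.13, adjusted p = 0.0454). Rrm1 and Rrm2, the subunits of ribonucleotide reductase, differed by 0.63 and 0.61, and Dut, which destroys dUTP, by 0.56, with no call. Thymidylate synthase, Tyms, was the lowest of the step at 0.32 (adjusted p = 0.300), and its 3 probes spread widely, from 0.32 to 0.86.

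**Figure D4:**
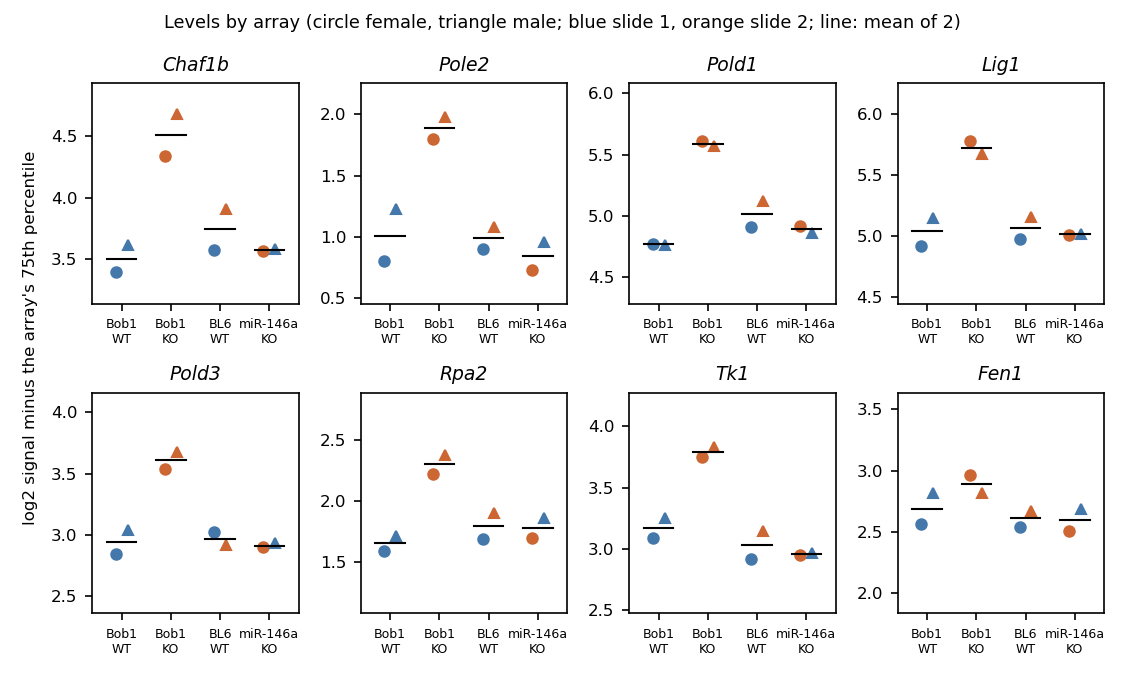
Level of the 7 called genes and of Fen1, the gene with the smallest difference, on each array (y axis, log2 signal relative to the array's 75th percentile; every panel spans the same range). Circles are female and triangles male cultures, blue is slide 1 and orange slide 2, and lines are means of 2. In all 7 called genes both Bob1 knockout arrays lie above the other 6, and in Fen1 they overlap with Bob1 wild-type.

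All 23 members that load and fire the helicase or clamp the polymerase were higher, but none was called in the fit of group means. There 3.49% of all features were called higher, and no call among 23 genes lies near that share. With replicate letter, which is also sex, as a block, 8 of the 23 were called (Cdt1, Gmnn, Mcm10, Mcm4, Mcm7, Gins2, Rfc2 and Rfc4). That block also raised the calls over all 17511 features, in either direction, from 1183 to 1837. With slide added to that block none of the 23 was called, where 0.754% of all features were. Of the 4 licensing genes, geminin (Gmnn), the inhibitor of Cdt1, had the largest difference, 0.77. It read 4.40 and 4.80 in wild-type and 5.17 and 5.58 in knockout, without overlap but with a wide spread between the sexes (SE 0.23, adjusted p = 0.0956). Cdt1 itself differed by 0.62 (adjusted p = 0.0563), Mcm10 by 0.54 and the loading factor Cdc6 by 0.38.

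The 6 helicase subunits Mcm2 to Mcm7 form 1 ring, and their differences lay close together, between 0.36 (Mcm3) and 0.64 (Mcm7) with a median of 0.52. Mcm7 averaged 5.46 ± 0.21 (SD, n = 2) in wild-type and 6.10 ± 0.00 (SD, n = 2) in knockout. For Mcm3 the means were 4.81 ± 0.32 and 5.18 ± 0.10 (SD, n = 2 each), so its difference was barely above the spread of its wild-type duplicates. Mcm2 read 3.43 and 3.72 in wild-type but 4.29 and 3.88 in knockout, the reverse order of the sexes. The smallest adjusted p of the ring was 0.0717 (Mcm7).

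Of the 7 genes for GINS, Cdc45 and the firing kinase, Gins1 had the largest difference, 0.64, and Gins4 the smallest, 0.21. These encode 2 of the 4 subunits of the same complex. Gins4 averaged 1.89 ± 0.19 in wild-type and 2.10 ± 0.23 in knockout (SD, n = 2 each), a difference within its spread. Cdc7 and its activator Dbf4 differed by 0.49 and 0.34, and Cdc45 by 0.26. Gins1, by contrast, read 2.83 and 3.18 in wild-type and 3.51 and 3.79 in knockout, without overlap.

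In the step of clamp and loader, Pcna (0.44) was the lowest and Rfc4 (0.64) the highest. Pcna read 6.28 and 6.61 in Bob1 wild-type, 6.79 and 6.99 in knockout, 6.25 and 6.54 in BL6 wild-type, and 6.20 and 6.33 in miR-146a knockout, so both knockout arrays were the highest by a small margin. Rfc4 averaged 3.80 ± 0.29 in Bob1 wild-type and 4.44 ± 0.13 in knockout (SD, n = 2 each). The 5 loader subunits Rfc1 to Rfc5 spanned 0.47 to 0.64, and the smallest adjusted p belonged to Rfc2 (0.0588).

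For 15 members more than 1 probe passed the filter, and all 33 of their probes gave a positive difference in the Bob1 knockout. The spread between probes of a gene was largest in Tyms (0.54), Pola2 (0.42 and 0.91) and Dbf4 (0.34 and 0.78). Those spreads exceeded the standard errors of the brightest probes (0.19, 0.17 and 0.14).

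The probes of the called members lie on 5 chromosomes, in the coordinates of mm9 that the scanner files give. They are chr7:51788621-51788751 for Pold1, chr7:107230679-107230738 for Pold3 and chr7:13896609-13896667 for Lig1. On other chromosomes they are chr12:70307465-70308864 for Pole2, chr4:132333869-132333929 for Rpa2, chr11:117677105-117677164 for Tk1 and chr16:93906269-93906329 for Chaf1b. Probes were designed to transcripts, and no mm9 annotation of exons was used here. The brightest probes of the members with a position lie on 15 chromosomes, so the list does not sit in 1 region.

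Apart from the array values, the members' promoters were searched for letters bound by E2F factors, the main known regulators of these genes. The shares below depend on which genes are on the list and would be the same without any shift. All genes were not matched to the members for base composition, and a part of E2F in the Bob1 differences was not tested. RefSeq windows of GRCm38.p6, from 250 bases before to 50 after a start, were available for 37 of 45 members (44 windows). The E2F letters were TTTCCCGC, TTTCGCGC, TTTGCCGC and TTTGGCGC on either strand, and matches on opposite strands can overlap. They occurred in 14 of the 37 genes (37.8%), against 2.60% of 27025 genes with a window. By window the shares were 31.8% of the members' and 2.26% of all 32851. All 7 called members had a window, and 4 held the letters, as did 10 of the other 30.

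The windows below show such matches in called members first and then in members of the licensing, helicase and clamp loader steps. Each gives 30 bases on the strand of the gene, 5′ to 3′, with the E2F letters in capitals.
Pold1: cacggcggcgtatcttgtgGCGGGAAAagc
Pold3: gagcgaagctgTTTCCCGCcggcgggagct
Pole2: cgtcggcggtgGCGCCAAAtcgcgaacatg
Lig1: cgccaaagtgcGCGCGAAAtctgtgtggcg
Cdc6: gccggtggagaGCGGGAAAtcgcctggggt
Mcm5: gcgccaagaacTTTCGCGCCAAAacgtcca
Mcm6: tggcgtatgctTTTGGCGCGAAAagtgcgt
Rfc3: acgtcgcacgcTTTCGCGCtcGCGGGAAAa

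In the first 4 genes the letters lie just after the start, beginning at base 40 in Pold1 (chr7:44548766-44548795, minus strand), 18 in Pold3 (chr7:100121467-100121496, minus), 11 in Pole2 (chr12:69228162-69228191, minus) and 27 in 1 of the windows of Lig1 (chr7:13278841-13278870, plus). In Cdc6 they begin 138 bases before the start (chr11:98908002-98908031, plus). Mcm5 (chr8:75109345-75109374, plus) and Mcm6 (chr1:128359797-128359826, minus) each hold 2 overlapping matches on opposite strands, which begin 153 and 149 bases before the start in Mcm5 and 110 and 106 in Mcm6. Rfc3 (chr5:151651200-151651229, minus) holds 1 match 10 bases before the start and another at base 1. A match describes these letters and is not a measured site.

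The CCAAT box, bound by NF-Y, was found on either strand in 21 of the 37 genes (56.8%), against 41.1% of all genes. The octamer ATGCAAAT, through which Oct1 and Oct2 recruit Bob1, was in none of the 44 windows on either strand, where 1.74% of all windows had it. That says only that these letters are not in these windows.

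The other replication genes and their regulators, which are not members, came from lists drawn up beside the members. Their counts of calls stand against the 3.49% of all features called higher, and a list with a single call in 16 or 18 genes lies near that share. In the Bob1 knockout, 2 of 16 further licensing and initiation genes were called, both higher: Rif1 (0.72, adjusted p = 0.0420), which times origin firing, and Topbp1 (0.58, adjusted p = 0.0420), which helps load Cdc45. The list's median was 0.39. Of 16 further fork factors, Timeless, part of the fork protection complex, was called (0.76, adjusted p = 0.0341), with a list median of 0.48. Pold4, the small subunit of polymerase delta, went the other way than its partners Pold1, Pold2 and Pold3, by -0.45, and did not pass (adjusted p = 0.0909).

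Among 20 E2F, Rb and S phase cyclin genes, 19 were higher and 2 were called, E2f8 (0.91, adjusted p = 0.0217) and E2f7 (0.80, adjusted p = 0.0388). Both are atypical E2F factors, known as repressors that are themselves E2F targets. E2f8 read 1.14 and 1.18 in Bob1 wild-type, 2.06 and 2.07 in knockout, and 1.04 to 1.34 on the other 4 arrays. The list's median was 0.45. No gene of 17 further nucleotide supply genes passed (median 0.35). Samhd1, which destroys deoxynucleotides, had the lowest value there, -0.84 (adjusted p = 0.136).

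Chromatin assembly outside the list had 1 call in 10, the maintenance methyltransferase Dnmt1 (0.69, adjusted p = 0.0492). Replication-coupled repair had 3 in 14, the PCNA-binding Pclaf (0.71, adjusted p = 0.0222), the recombination mediator Brca2 (0.60, adjusted p = 0.0277) and the helicase Blm (0.74, adjusted p = 0.0368). Mitosis genes, taken for comparison, were higher in 18 of 18, with a median of 0.53 that equals that of the replication genes, and Aurkb was called (0.74, adjusted p = 0.0395).

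These are again differences between slides. With slide as a block none of the 10 genes called in these lists passed, at differences of 0.52 to 0.71 and adjusted p-values from 0.250 (E2f8) to 0.466 (Dnmt1). Within slide 2 the same 10 were higher by 0.52 to 0.76, also with no call (smallest adjusted p = 0.0946, E2f8). The mitosis genes, higher in 18 of 18 there as well, had a median of 0.52 within slide 2.

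Markers of some other cells were lower on the knockout arrays. Of the 11 myeloid markers tested, 10 were lower in the Bob1 knockout, with a median of -0.93, and the neutrophil elastase gene Elane was called (-1.19, adjusted p = 0.0446). Their summed linear level was 1520 and 1210 in Bob1 wild-type, 982 and 1310 in Bob1 knockout, 1560 and 1320 in BL6 wild-type, and 1290 and 1360 in miR-146a knockout, so the sums of the Bob1 groups overlapped. By array, the myeloid markers' median deviation was 0.62 and -0.05 in Bob1 wild-type, -0.84 and -0.53 in Bob1 knockout, 0.42 and -0.08 in BL6 wild-type, and 0.26 and 0.17 in miR-146a knockout. The arrays where it was lowest, both of the Bob1 knockout, are those where the replication genes were highest. Within slide 2 all 11 were lower in the knockout, with a median of -0.73 and no call, and with slide as a block Elane did not pass (-0.97, adjusted p = 0.443).

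T and NK, megakaryocyte, mast and basophil, dendritic and stroma markers had medians of -1.02, -0.83, -0.83, -0.87 and -1.17, with no call. By array, the megakaryocyte and the mast and basophil markers were lowest on both knockout arrays, the latter by a small margin (median deviations of -0.66 and -0.72, against -0.65 in the male Bob1 wild-type culture). The T and NK, dendritic and stroma markers overlapped with other arrays. The stroma markers' median deviation was -1.66 in the female and 1.31 in the male knockout culture, and within slide 2 all 5 were higher in the knockout, with a median of 0.55. The 4 erythroid markers tested ran from -1.20 to 1.57 with a median of -0.30, also with no call. B lineage markers summed to 714 and 824 in Bob1 wild-type and to 836 and 726 in knockout, with a median of 0.11, Il7r called higher (0.80, adjusted p = 0.0304) and Cd79b lower (-1.39, adjusted p = 0.0100). With slide as a block neither passed (Il7r 0.65, adjusted p = 0.366, and Cd79b -1.62, adjusted p = 0.0736). The part of the marker shifts in the replication genes' differences was not tested.

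**Figure D5:**
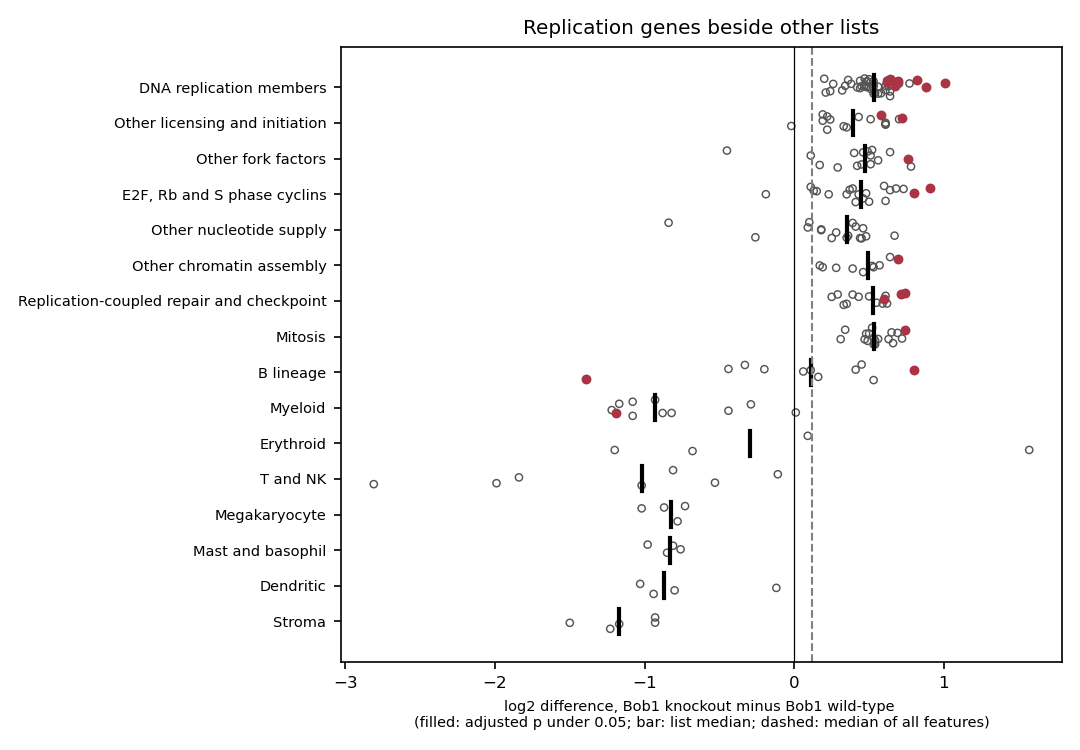
Log2 difference between Bob1 knockout and Bob1 wild-type (x axis) for the 45 replication genes, other lists of cycling cells and marker lists of cell types, 1 point per gene. Filled points passed the test, bars are list medians and the dashed line is the median of all features, 0.12. The 7 lists of cycling cells outside the members have medians of 0.35 to 0.53, and the myeloid markers one of -0.93.

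In the miR-146a knockout, no replication gene was called against BL6 wild-type, and 0 had an unadjusted p under 0.05. All features were called in 0.103% and had such a p in 2.86%. Differences ran from -0.28 (Gmnn, SE 0.23) to 0.20 (Pola2, SE 0.17), with a median of -0.09 against -0.03 for all features. Of the members 38 were lower, in a comparison where 42.5% of all features were higher. But 32 members were higher once the BL6 wild-type male array was left out, so the sign of these small differences rests on that array. The 95% intervals of the members reached from -0.83 to 0.61. A rise as large as the Bob1 median of 0.53 lay inside the interval of 1 member, Pola2, and above it for the other 44. A fall of that size lay inside the interval of 12 members. That 0.53 is a difference between slides, without the median of all features taken off. The Bob1 median with slide as a block, 0.46, also lay inside the interval of Tyms (up to 0.49), and that of Cdc6 ended at 0.46.

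Gmnn read 4.47 and 4.92 in BL6 wild-type and 4.41 and 4.43 in miR-146a knockout. Both miR-146a knockout arrays were below both wild-type arrays for 3 members (15.4% of all features) and above them for 2 (11.4%). The 6 helicase subunits differed by -0.14 to -0.03, the clamp and its loader by -0.16 to 0.06 and the polymerase and primase genes by -0.16 to 0.20. The step medians ran from -0.13 (licensing) to -0.05 (RPA and Okazaki fragment genes), so no step stood apart in size.

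The wild-type colonies also did not separate. Between Bob1 wild-type and BL6 wild-type no member was called, where 0.0457% of all features were, and 0 had an unadjusted p under 0.05, where 2.19% of all features had one. Differences ran from -0.25 (Pold1) to 0.19 (Cdc45), with a median of -0.02 against -0.03 for all features and 95% intervals from -0.76 to 0.60. Pold1, which had the smallest adjusted p in the Bob1 comparison, was thus 0.25 lower in the wild-type group it was compared with than in the other one, a difference that did not pass. The comparison of the wild-type groups runs partly between slides. Within slide 1, Pold1 in Bob1 wild-type differed from the 2 other arrays by -0.12.

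The contrast of both effects, Bob1 minus miR-146a, tests whether the knockouts differ in what they did to these genes. It was positive for all 45 members and for 62.3% of all features. Among the members it ran from 0.20 to 1.18, with a median of 0.65 against 0.14 for all features. No member was called, where 0.72% of all features were called higher, and 32 had an unadjusted p under 0.05, where 13.4% of all features were higher at that level. Chaf1b had the largest value, 1.18 (SE 0.26, adjusted p = 0.0809), and Pold1 the smallest adjusted p (0.95, SE 0.17, adjusted p = 0.0518). With slide as a block no member was called either, where 0.4% of all features were in either direction. A difference between the knockouts is therefore not established for any single member at this threshold.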

How the data were processed

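Each of 8 cultures was hybridised to a one-colour Agilent 4x44K mouse array. The deposited intensity used here is the background-subtracted processed signal of Feature Extraction 10.5.1.1, per the file headers. The spot flags for outliers and for signal well above background are also the deposited ones. A value table that the authors deposited, with log2 values and column medians of 9.588 to 9.589, served as an alternative. The submitters' processing notes name limma without its role, and the table's exact scaling and centring are unknown here.

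Control spots and outlier spots (71 to 156 per array) were left out, no spot was saturated, and the log2 signal was taken relative to the array's 75th percentile. Of 41174 probes, 26525 exceeded background clearly on both arrays of some group and were kept. The brightest passing probe stood for a symbol. Symbols came through transcript accessions in a RefSeq table (GRCm38.p6) for 27584 probes and from the scanner files for 6755. A limma fit (version 3.58.1, R 4.3.3) with 4 group means over all 8 arrays gave 4 residual degrees of freedom, and p-values were adjusted by Benjamini-Hochberg over 17511 features. The fit was also run on simulated data with known changes. That simulation held no effect of slide or sex, so it cannot speak to either. The members, gene lists and tests were chosen with earlier results of these data known. All members could be named. Per-array values are given for called members, some step extremes and Mcm2, chosen after its values were seen, and other lists' genes are named where called (up to 3 a list) or, for Pold4 and Samhd1, after their values were seen. Having 2 arrays a group limits the precision.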

Additional observations from a re-analysis of the deposited data

How the results depend on the processing

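All 45 members stayed above Bob1 wild-type under all 20 alternatives of that comparison, with single values from 0.01 to 1.18, but the number called moved from 0 to 21. Counts are given with the share of all features called in either direction. They were 7 (6.76%) in the reported fit, 3 (6.7%) with quantile normalization, 1 (1.99%) with no filter on dim probes, 12 (8.89%) with only probes well above background on all arrays, 12 (5.65%) in the deposited value table, 0 (1.75%) with only the arrays of the groups compared, 0 (0.72%) with a slide block and 0 (0.754%) with slide and replicate block together. The mean of a gene's probes gave 7 (7.28%), with Pola2 called in place of Rpa2. Leaving out single arrays gave 0 to 2 (2.01% to 4.72%). The other contrast, against the mean of the 3 other groups, gave 28 (15.7%). The members' median above that of all features, 0.41, was 0.28 with no filter and 0.31 to 0.55 without single arrays. The median of all features was 0.12, 0.06 after quantile normalization and 0.01 in the deposited table.

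The normexp correction with all spots failed as a model. On 4 arrays 2 to 6 spots lay below their own background, and the fit placed the background far below 0. It gave 0 calls with a median excess of 0.7 in the Bob1 comparison, 44 calls within slide 2, excesses of 0.19 for miR-146a knockout and 0.62 between the wild-type groups, and reversed Gmnn in miR-146a knockout (0.06) and Pold1 between the wild-type groups (0.34). Without those spots, an alternative added after seeing the data, it gave 20 calls (19.9% of all features) in the Bob1 comparison, 3 within slide 2, and 3 (4.79%) for the difference of both effects with an excess of 0.37.

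For that difference of effects, 0 members were called in the reported fit (2.07% of all features) and 0 with a slide block (0.4%). It had 1 call with only probes well above background on all arrays (2.57%) and 2 in the deposited table (0.862%). Its excess of 0.51 fell to 0.37 with no filter and lay between 0.38 and 0.61 without single arrays. Between the wild-type groups the excess lay between -0.16 and 0.13 without single arrays. No member was called in either comparison without the Bob1 knockout under any alternative.

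The replicate letters are shared by the groups but coincide with sex and are not said to pair cultures. Deviations of same-letter arrays correlated at 0.07 to 0.38 between groups. With a replicate block 21 members were called in the Bob1 comparison, where calls over all features rose from 1183 to 1837, and 2 in the difference of effects (3.39%). The causes of these shifts were not tested. Signal over background did not limit the members, since each was detected on all 8 arrays.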

Other observations

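In a comparison added after the values were seen, male cultures were above female ones for all 45 replication genes and 53.6% of all features. Replicate letter (A female, B male) was a block over the 4 groups. The members' differences ran from 0.02 (Pold1, Gins4) to 0.35 (Rpa1), with a median of 0.18 against 0.02 for all features, and none was called (smallest adjusted p = 0.238). By group, the male array was above the female one for 44 of 45 members in Bob1 wild-type, 33 in Bob1 knockout, 39 in BL6 wild-type and 37 in miR-146a knockout. For all features these shares were 53.6%, 46.6%, 59.4% and 49%. The median difference was 0.28 in Bob1 wild-type and 0.08 in Bob1 knockout. In Bob1 wild-type and BL6 wild-type, the female array had the higher summed myeloid marker level (1520 against 1210, and 1560 against 1320). In Bob1 knockout and miR-146a knockout it had the lower one (982 against 1310, and 1290 against 1360). By the myeloid markers' median deviation, the female array was higher in Bob1 wild-type and BL6 wild-type (0.62 against -0.05, and 0.42 against -0.08). It was also higher in miR-146a knockout (0.26 against 0.17), but lower in Bob1 knockout (-0.84 against -0.53). The part of the myeloid level in the difference between the sexes was not tested. Each sex and group had 1 culture.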
